A study of Homo sapiens with 15 samples.

Results

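The MYC, MAX and MXD network is a family of basic helix-loop-helix leucine zipper transcription factors, described here through 10 of its genes: MYC, MYCN, MYCL, MAX, MXD1, MXD3, MXD4, MXI1, MNT and MLX. They were taken by gene name from a table of 19966 genes, and each name matched 1 row. A gene was tested where it reached 1 FPKM (a level per gene length and sequencing depth, computed from the deposited values) in at least 3 libraries, which 11137 genes did. MYCN stayed under this level, so 9 of the 10 network genes were tested. RNA was sequenced from 293T, a cell line derived from human embryonic kidney that expresses large T antigen of SV40, in 3 groups of 3 libraries. The SRSF1 knockdown libraries came from cells starved of serum for 12 h and labelled as a knockdown of SRSF1, a serine/arginine-rich splicing factor. The starved libraries came from cells with the same 12 h of starvation and no named knockdown. The fed libraries came from wild-type cells that were not starved. The design text names a short hairpin against SRSF1, and the labels name no non-targeting hairpin and give neither hairpin sequences nor clones. SRPK1 and UPF1 knockdown samples belong to the series and were not analysed here.

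In the network, MYC, MYCL and MYCN bind DNA as heterodimers with MAX, mostly at the E-box CACGTG, and activate genes of growth, ribosome production and metabolism. The MXD proteins, MXI1 and MNT compete for the same partner and the same site and recruit SIN3 and histone deacetylase complexes that repress transcription. MLX is a MAX-like partner that pairs with the glucose-sensing factors MondoA (MLXIP) and ChREBP (MLXIPL) and with a few of the repressors. MYC RNA is short-lived and is known to respond to serum in cultured cells.

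The libraries held 11775367 to 15231651 reads. Values below are normalised read counts, which are the authors' reads divided by a factor per library, and tests used limma on log2(FPKM + 1) with Benjamini-Hochberg adjustment over the 11137 genes. Limma's log2 fold changes are differences of log2(FPKM + 1), and at low FPKM they are smaller than the ratios of counts given beside them. The labels do not say whether replicates were separate cultures, so p-values measure the spread between these libraries. In bulk RNA, fewer cells of a type and less RNA per cell cannot be told apart. SRSF1 itself averaged 2409 in the knockdown libraries, 3246 in the starved ones and 2515 in the fed ones. Against starved libraries it fell by 25.8% in knockdown libraries (log2 fold change -0.42 ± 0.07 SE, limma adjusted p = 0.000999). Against fed libraries the difference was -0.06 and was not called (limma adjusted p = 0.590). SRSF1 was called higher in starved than in fed libraries (0.36 ± 0.07 SE, limma adjusted p = 0.0027). Of 11 epithelial and kidney markers 4 were tested. KRT8 and KRT18, keratins of simple epithelia, reached 21.5 and 15.6 FPKM, CDH1 and EPCAM at most 1.79 and 1.116 FPKM, and UMOD and CDH16 were at 0 in every library. Of 8 neuronal markers 5 were tested, of which NEFM and NEFL reached 42.7 and 37.5 FPKM, while NEFH, TUBB3 and ELAVL3 stayed at or below 0.329 FPKM.

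These marker levels moved with the groups. The 11 epithelial and kidney markers summed to 32.1 to 41.0 FPKM in knockdown, 20.7 to 26.9 FPKM in starved and 30.0 to 35.8 FPKM in fed libraries. The 8 neuronal markers summed to 73.8 to 100.02 FPKM in knockdown, 56.3 to 58.1 FPKM in starved and 64.2 to 69.8 FPKM in fed libraries, and 12 markers of other lineages summed to 5.72 to 6.61 FPKM in knockdown, 3.88 to 4.49 FPKM in starved and 5.94 to 6.38 FPKM in fed libraries. KRT8 (-0.92) and NEFL (-1.32) fell and SYP (1.81) rose in starved against fed libraries, and KRT8 (1.118) and NEFL (1.56) rose and SYP (-1.56) fell in knockdown against starved libraries, as log2 fold changes called by limma. The part of these shifts in the results below was not tested.

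Compared per length, MYC and its partners were not equally abundant. In knockdown libraries MYC was highest at 26.0 FPKM, above MLX at 20.4, MXD4 at 14.8, MXI1 at 12.7 and MAX at 8.70 FPKM, with overlapping libraries for MXD4 and MXI1. MNT at 3.11, MXD3 at 2.53, MXD1 at 2.50 and MYCL at 2.42 FPKM followed, and the libraries of each of these 4 overlapped those of its neighbour in the order. In starved libraries MLX stood at 27.9, MYC at 23.5 and MXD4 at 22.9 FPKM, and the libraries of these 3 genes overlapped. MAX followed at 10.1, MXI1 at 8.46, MNT at 4.56, MXD3 at 3.64, MXD1 at 2.99 and MYCL at 1.005 FPKM, with overlapping libraries for MXD3 and MXD1. In fed libraries the order was MYC at 28.4, MLX at 18.5, MXD4 at 17.3, MXI1 at 9.26, MAX at 9.14, MXD3 at 4.51, MNT at 2.85, MYCL at 2.28 and MXD1 at 1.88 FPKM, with overlapping libraries for MLX and MXD4 and for MXI1 and MAX. MYCN was last in each group, at 0.319 FPKM in knockdown, 0.189 FPKM in starved and 0.430 FPKM in fed libraries.

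The first comparison set serum-starved against fed cells. MYC and MYCL fell, while the repressors MXD1 and MNT and the MAX-like partner MLX rose. Of the 9 tested genes 3 were called higher and 2 lower, against 42.8% of all tested genes called in this comparison (21.5% higher, 21.3% lower), so a call was common among all genes too. The starved and fed libraries did not overlap for any of the 9 genes, with 5 higher and 4 lower in starved cells, which held for 59.2% of all tested genes (30.6% higher, 28.6% lower). The median log2 fold change was 0.13 over the 9 genes and 0.03 over all tested genes.

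MYC (ENSG00000136997, chr8:127735434-127742951, plus strand, GRCh38), the broad activator of the family, had 1426, 1564 and 1369 normalised reads in starved libraries and 1657, 1773 and 1831 in fed libraries. Every starved library was below every fed one, and MYC fell by 17.1% on average (log2 fold change -0.26 ± 0.09 SE, limma adjusted p = 0.0393). Its adjusted p lay between 0.00434 and 0.136 over 25 alternative settings. The call was lost when any 1 of the fed libraries, starved replicate 1 or 3, or knockdown replicate 1 was left out. It was also lost by edgeR (adjusted p = 0.0655) and by DESeq2 (adjusted p = 0.0693), each on 8 libraries. MYCL (ENSG00000116990, chr1:39895426-39902256, minus strand), a paralogue first found amplified in lung cancer, had 69.1, 72.7 and 63.9 normalised reads in starved libraries and 151, 143 and 173 in fed libraries. The starved level was 0.440 of the fed level, well clear of the spread within either group (log2 fold change -0.71 ± 0.08 SE, limma adjusted p = 8.6e-05). Starved replicates 1 and 2 lay just above the 1 FPKM level, at 1.01 and 1.07 FPKM, and replicate 3 just under it at 0.937 FPKM. At such low FPKM the added 1 shrinks the fold change, and edgeR on recovered reads of 8 libraries gave -1.22 (adjusted p = 0.00053). MYCN (ENSG00000134323, chr2:15940550-15947007, plus strand), the paralogue known from neuroblastoma, had 11.0, 5.51 and 3.49 normalised reads in starved libraries and 12.6, 12.5 and 20.4 in fed libraries. All starved values were below all fed ones, but at so few reads that MYCN was not in the main test. When all 17293 genes with any reads were tested, its difference of log2(FPKM + 1) was -0.27 (limma adjusted p = 0.0423). The added 1 exceeds the FPKM of MYCN and shrinks this difference, and the mean starved count was 0.440 of the fed one.

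MAX (ENSG00000125952, chr14:65006174-65102695, minus strand), the partner shared by activators and repressors, had 802, 963 and 797 normalised reads in starved libraries and 761, 778 and 773 in fed libraries. The groups did not overlap, yet the difference of 0.13 ± 0.08 SE missed the threshold (limma adjusted p = 0.243). Starved replicate 2 was the highest of the 3 starved libraries in MAX, as it was in MXD4 and MLX.

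Among the repressors, MNT (ENSG00000070444, chr17:2384073-2401104, minus strand), the most broadly expressed of the MAX-binding repressors, had 614, 448 and 541 normalised reads in starved libraries and 356, 325 and 321 in fed libraries. Starved levels were 1.60 times the fed ones (log2 fold change 0.52 ± 0.10 SE, limma adjusted p = 0.00226). MXD1 (ENSG00000059728, chr2:69897688-69942945, plus strand), known for its rise during differentiation, had 235, 204 and 328 normalised reads in starved libraries and 150, 168 and 165 in fed libraries. All starved libraries were higher, although they spread widely among themselves (1.59-fold in counts, log2 fold change of FPKM + 1 0.45 ± 0.12 SE, limma adjusted p = 0.0119). By edgeR on 8 libraries the log2 fold change was 0.69 (adjusted p = 0.0188). On the TPM scale (levels per length, rescaled to the same sum in each library) MXD1 was not called (limma adjusted p = 0.0578). MXD4 (ENSG00000123933, chr4:2247432-2262109, minus strand), a MAX-binding repressor of the MXD family, had 1871, 2446 and 2054 normalised reads in starved libraries and 1491, 1540.1 and 1769 in fed libraries. It was higher in each starved library and missed the threshold at 0.38 ± 0.17 SE (limma adjusted p = 0.0857). MXI1 (ENSG00000119950, chr10:110207605-110287365, plus strand), a repressor also called MXD2, had 713, 603 and 704 normalised reads in starved libraries and 733, 719 and 759.8 in fed libraries, a difference of -0.12 ± 0.10 SE (limma adjusted p = 0.341). MXD3 (ENSG00000213347, chr5:177301461-177312757, minus strand), known from proliferating precursor cells, had 236, 264 and 258 normalised reads in starved libraries and 306, 289 and 346 in fed libraries. Its -0.25 ± 0.23 SE did not pass (limma adjusted p = 0.423), and its standard error, shared over the 3 groups, includes the spread of the knockdown libraries described below.

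MLX (ENSG00000108788, chr17:42567072-42573239, plus strand) had 1401, 1857 and 1539 normalised reads in starved libraries and 1067, 1043 and 1081 in fed libraries. Starved levels were 1.503 times the fed ones (log2 fold change 0.55 ± 0.11 SE, limma adjusted p = 0.00218). Exons of PSMC3IP on the opposite strand cover 18.1% of the exonic bases of MLX, the strand used in counting is not given in the sources used here, and PSMC3IP was also higher in starved cells (0.44, limma adjusted p = 0.0021). MXD3 shares 22.5% of its exonic bases with PRELID1 on the opposite strand and 18.0% with RAB24 on its own strand, so its counts are uncertain in the same way.

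**Figure D1:**
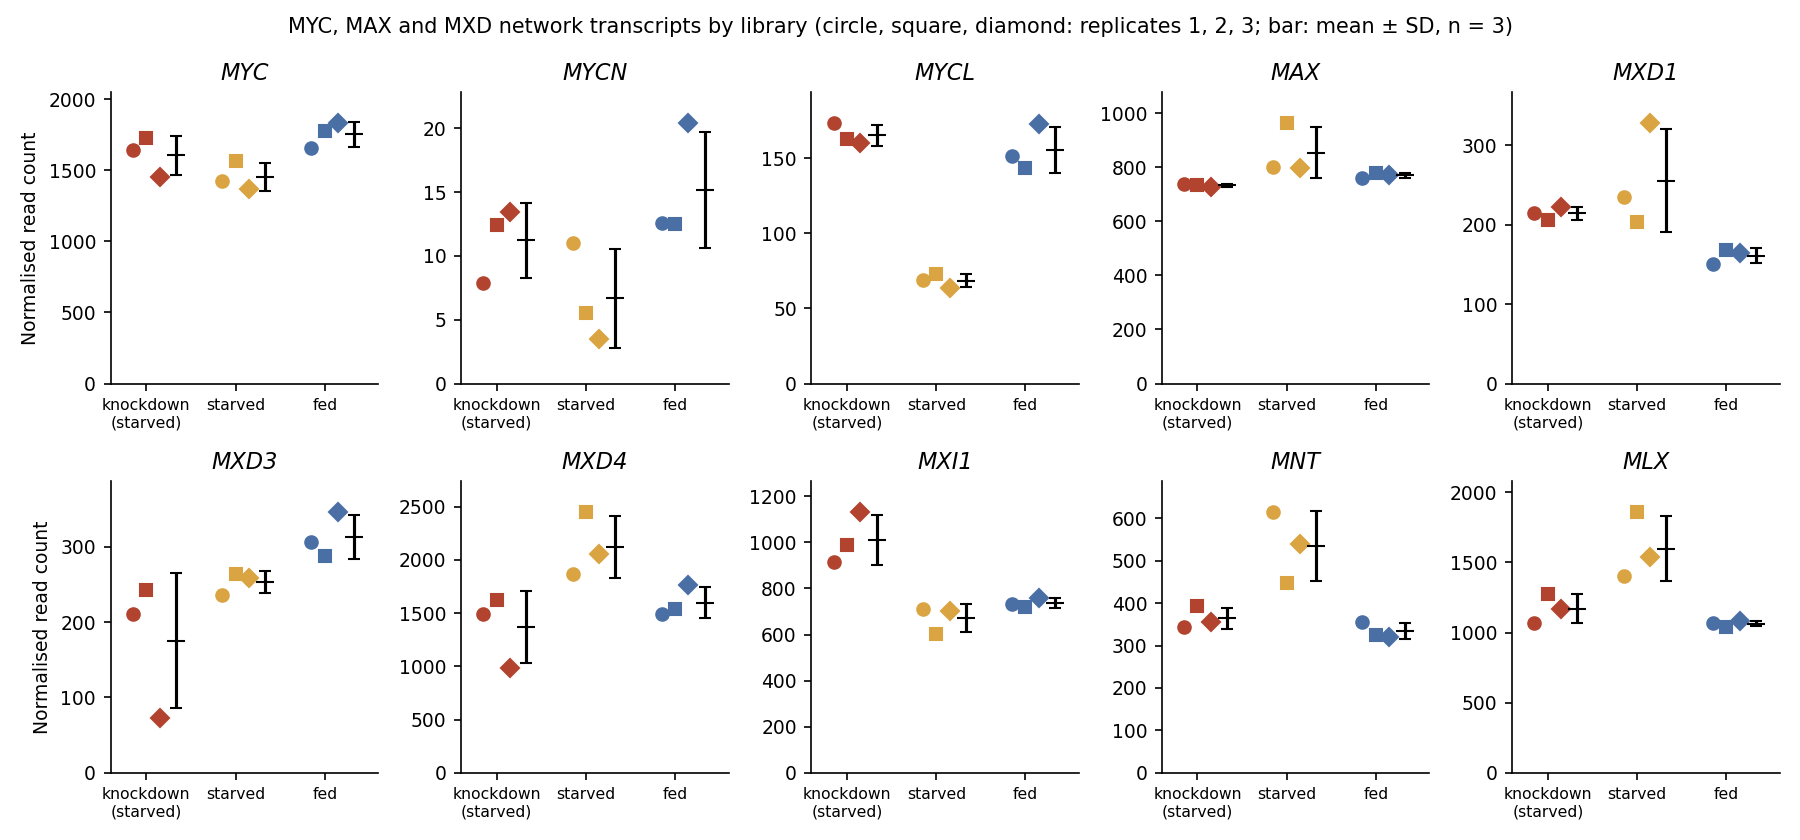
Normalised read counts (vertical axes, each from 0) of the 10 network genes in 3 SRSF1 knockdown, 3 starved and 3 fed libraries, with symbols for replicates and bars for the mean and SD. MYCL averaged 68.6 in starved libraries, against 165 in knockdown and 156 in fed ones, and MXD3 in knockdown replicate 3 stood at 73.3.

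The second comparison set SRSF1 knockdown in starved cells against starvation alone. MYCL and MXI1 rose, and MXD4, MNT and MLX fell. Of the 9 tested genes 2 were called higher and 3 lower, against 46.4% of all tested genes (22.5% higher, 23.9% lower). For 6 of the 9 the knockdown and starved libraries did not overlap, 2 higher and 4 lower in the knockdown, against 51.0% of all tested genes (24.8% higher, 26.2% lower). The median log2 fold change was -0.19 over the 9 genes and -0.04 over all tested genes. Both comparisons use the same starved libraries, so a gene that is high or low in those 3 libraries tends to opposite signs in the 2 comparisons.

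MYCL had 173, 163 and 160.1 normalised reads in knockdown libraries, against 69.1, 72.7 and 63.9 in starved libraries. Knockdown levels were 2.41 times the starved ones (log2 fold change of FPKM + 1 0.77 ± 0.08 SE, limma adjusted p = 4.8e-05). By edgeR on 8 libraries the log2 fold change was 1.30 (adjusted p = 0.000366). MYC had 1640.3, 1725 and 1455 normalised reads in knockdown libraries, against 1426, 1564 and 1369 in starved libraries. These groups overlapped, and the difference of 0.14 ± 0.09 SE did not pass the test (limma adjusted p = 0.237). MYCN averaged 11.2 ± 2.95 normalised reads in knockdown and 6.67 ± 3.90 in starved libraries (SD, n = 3 each), with overlapping libraries.

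MXI1 was the repressor that rose. It had 914, 988 and 1130.0 normalised reads in knockdown libraries, against 713, 603 and 704 in starved libraries, and was 1.501 times the starved level (log2 fold change 0.53 ± 0.10 SE, limma adjusted p = 0.00130). MXD4 fell, with 1494, 1624 and 982 normalised reads in knockdown libraries and 1871, 2446 and 2054 in starved libraries. It fell by 35.6% (log2 fold change -0.62 ± 0.17 SE, limma adjusted p = 0.0113). Knockdown replicate 3 was well under the other 2 knockdown libraries, and without it the difference was -0.42 (limma adjusted p = 0.0141). MNT fell as well, with 344, 393 and 356 normalised reads in knockdown libraries and 614, 448 and 541 in starved libraries (-0.43 ± 0.10 SE, limma adjusted p = 0.00635). The highest knockdown library lay under the lowest starved one.

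MLX had 1068, 1273 and 1170.2 normalised reads in knockdown libraries, against 1401, 1857 and 1539 in starved libraries, and fell by 26.8% (-0.43 ± 0.11 SE, limma adjusted p = 0.00861). MAX had 737, 736 and 727 normalised reads in knockdown libraries, against 802, 963 and 797 in starved libraries. Every knockdown library was below every starved one, and the difference of -0.19 ± 0.08 SE missed the threshold (limma adjusted p = 0.0846). MXD1 had 215, 206 and 222 normalised reads in knockdown libraries, against 235, 204 and 328 in starved libraries, which overlapped (-0.17, limma adjusted p = 0.270). MXD3 had 211, 242 and 73.3 normalised reads in knockdown libraries, against 236, 264 and 258 in starved libraries (-0.47 ± 0.23 SE, limma adjusted p = 0.120).

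Knockdown replicate 3 stood apart in MXD3 and MXD4. Set against the mean of knockdown replicates 1 and 2 on the log2(FPKM + 1) scale, it was lower by 1.05 in MXD3 and by 0.62 in MXD4, and 1.35% and 6.29% of tested genes were at or below these values. This library held 5.56% mitochondrial values, against 3.52% and 3.75% in the other knockdown libraries and at most 4.54% elsewhere, and it had the lowest correlations with libraries of its own group (0.986). Its deviation fell with the GC content of the transcripts over 11117 genes (Spearman's rho -0.41, across genes of 1 library, which are not independent). Transcript GC content was 64.0% in MXD4, 61.4% in MNT and 55.8% in MXD3, against a median of 48.6% over these genes, and MNT deviated by -0.04. The part of these features in the values of MXD3 and MXD4 in replicate 3 was not tested. Over the same 11117 genes, log2 fold changes rose with GC content in knockdown against starved (rho 0.21) and knockdown against fed libraries (rho 0.20). In starved against fed libraries rho was -0.09, and these genes too are not independent. With the trend on GC content removed, the knockdown against starved difference was -0.69 for MXD4 (limma adjusted p = 0.000138) and -0.54 for MXD3 (limma adjusted p = 0.0580). Without knockdown replicate 3 the knockdown against starved difference of MXD3 was -0.12 (limma adjusted p = 0.292) and that of MXI1 was 0.46 (limma adjusted p = 0.00203).

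The network genes called lower in knockdown than in starved libraries, MXD4, MNT and MLX, each had an E-box near an annotated start. They are grouped here by that result, so the match is a description and not a test. None of them was called in knockdown against fed libraries, and MYC had no window to read. The windows from 250 bases before to 50 bases after the annotated start in RefSeq (GRCh38.p14) were read for 9 of the 10 genes, in 12 windows. CACGTG, which reads the same on both strands, was found in a window of each of these 3 genes and in no window of MYCN, MYCL, MAX, MXD1, MXD3 or MXI1. Its first base lay 238 bases before the start in MXD4 (chr4:2262060-2262359, minus strand), 193 before the start in MNT (chr17:2401011-2401310, minus strand) and 50 before the start in MLX (chr17:42566850-42567149, plus strand). The windows are shown 5′ to 3′ on the gene's strand because they hold the E-box that the network itself binds, with the 6 bases of the motif in capitals.

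MXD4: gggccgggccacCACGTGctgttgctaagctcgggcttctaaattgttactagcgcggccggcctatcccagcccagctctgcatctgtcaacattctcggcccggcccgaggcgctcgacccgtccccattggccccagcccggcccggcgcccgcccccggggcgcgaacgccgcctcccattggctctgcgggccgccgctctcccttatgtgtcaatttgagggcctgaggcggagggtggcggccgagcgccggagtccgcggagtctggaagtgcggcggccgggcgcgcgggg
MNT: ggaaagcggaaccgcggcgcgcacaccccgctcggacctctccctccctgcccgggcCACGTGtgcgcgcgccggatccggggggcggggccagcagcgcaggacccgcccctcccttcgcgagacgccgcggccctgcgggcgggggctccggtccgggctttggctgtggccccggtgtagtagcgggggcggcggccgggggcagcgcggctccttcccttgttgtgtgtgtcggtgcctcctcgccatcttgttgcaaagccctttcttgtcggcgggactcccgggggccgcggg
MLX: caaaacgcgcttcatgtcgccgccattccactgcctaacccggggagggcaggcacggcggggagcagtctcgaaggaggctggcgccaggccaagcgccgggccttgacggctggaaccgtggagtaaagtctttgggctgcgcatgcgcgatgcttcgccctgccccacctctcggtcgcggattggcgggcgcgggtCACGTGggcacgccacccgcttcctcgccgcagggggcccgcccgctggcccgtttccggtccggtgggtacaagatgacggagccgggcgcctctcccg

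The motif stood in 2548 of 35116 windows of this length (7.3%), and 1167 of 9062 tested genes that had a window held it. In the knockdown against starved comparison these genes were called higher in 15.6% and lower in 29.8%, with a median log2 fold change of -0.11, against 22.9%, 23.2% and -0.03 for tested genes whose windows lacked it. In the starved against fed comparison they were called higher in 28.5% and lower in 16.0%, with a median of 0.10, against 20.9%, 21.6% and 0.02 for genes without it. Both comparisons use the same starved libraries. In knockdown against fed libraries, genes with the motif were called higher in 9.34% and lower in 8.91%, with a median of -0.012. Genes without it were at 9.02%, 9.01% and -0.008 there. A match describes the letters of a window and shows no binding.

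**Figure D2:**
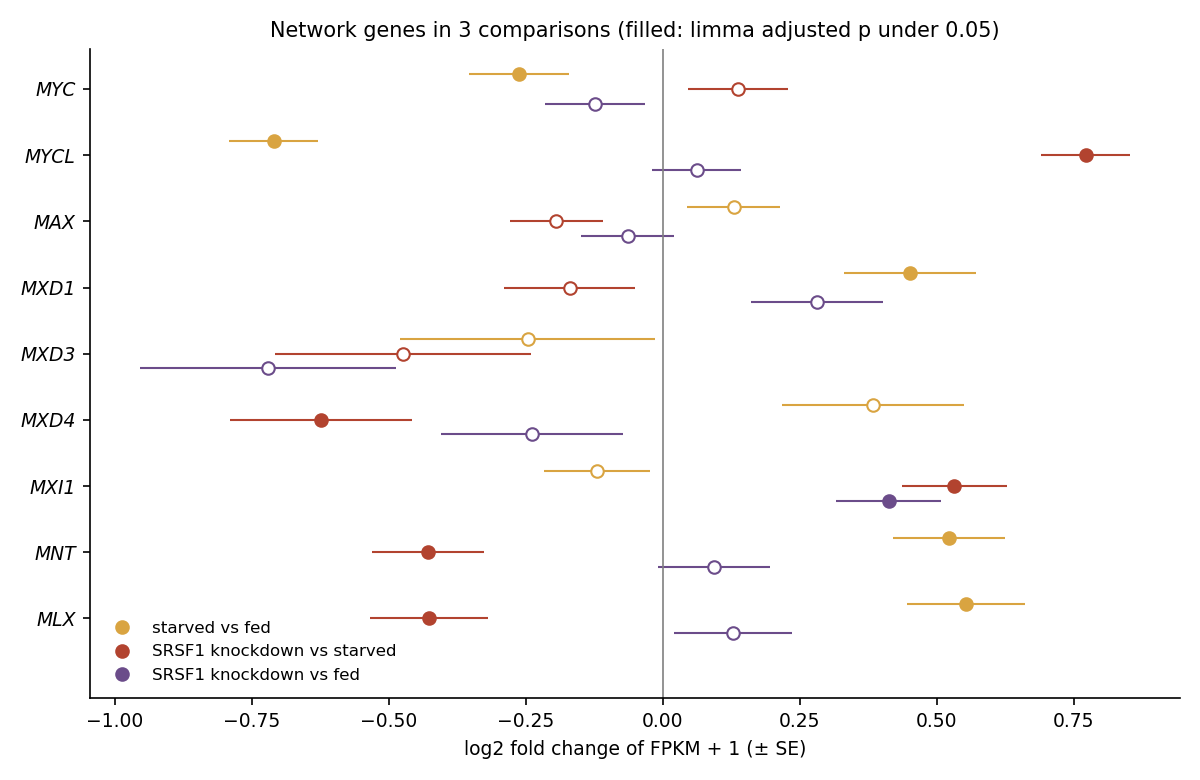
Log2 fold changes of FPKM + 1 (horizontal axis, bars ± SE) of the 9 tested network genes in 3 comparisons, with filled points where the limma adjusted p was under 0.05. Starved against fed and knockdown against starved lay on opposite sides of 0 for MYC, MYCL, MAX, MXD1, MXD4, MXI1, MNT and MLX, and these comparisons share the starved libraries.

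The third comparison set SRSF1 knockdown in starved cells against fed cells. MXI1, at 1.37 times the fed level, was the 1 gene called among the 9 tested (log2 fold change 0.41 ± 0.10 SE, limma adjusted p = 0.0162), against 18.5% of all tested genes (9.27% higher, 9.22% lower). Its 914 to 1130.0 normalised reads in knockdown libraries all exceeded its 719 to 759.8 in fed libraries. The call was lost on the TPM scale (limma adjusted p = 0.0698) and without fed replicate 1 (0.0646) or fed replicate 2 (0.0642). MYCL averaged 165 ± 7.01 normalised reads in knockdown and 156 ± 15.3 in fed libraries (SD, n = 3 each), a difference of 0.06 ± 0.08 SE (limma adjusted p = 0.623). MNT averaged 365 ± 25.2 in knockdown and 334 ± 19.0 in fed libraries (limma adjusted p = 0.548), and MLX averaged 1171 ± 102 in knockdown and 1064 ± 19.2 in fed libraries (limma adjusted p = 0.427). MXD3 had 211, 242 and 73.3 normalised reads in knockdown libraries, all below its 306, 289 and 346 in fed libraries, and missed the threshold at -0.72 ± 0.23 SE (limma adjusted p = 0.0550). Without knockdown replicate 3 it was -0.37 and passed (limma adjusted p = 0.0219). MXD1 was higher in each knockdown library than in each fed one without passing (0.28 ± 0.12 SE, limma adjusted p = 0.124). For 4 of the 9 genes the libraries of these groups did not overlap, 2 higher and 2 lower in the knockdown, against 41.1% of all tested genes (20.1% higher, 21.0% lower). Missing the threshold does not show that levels were equal, and the standard errors above give the differences that these libraries could resolve.

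Summing levels per length puts the repressors beside the activators. The repressors MXD1, MXD3, MXD4, MXI1 and MNT summed to 35.6 ± 3.88 FPKM in knockdown libraries, 42.6 ± 1.80 FPKM in starved libraries and 35.8 ± 2.17 FPKM in fed libraries (SD, n = 3 each). MYC, MYCL and MYCN summed to 28.7 ± 2.24 FPKM in knockdown, 24.7 ± 1.69 FPKM in starved and 31.1 ± 1.67 FPKM in fed libraries. The ratio of repressor to activator RNA was 1.23, 1.28 and 1.20 in knockdown libraries, 1.66, 1.66 and 1.86 in starved libraries and 1.17, 1.11 and 1.17 in fed libraries. All 3 starved libraries had a higher ratio than any of the other 6. Of the repressors, MXD4 rose from 17.3 FPKM in fed to 22.9 FPKM in starved libraries, and limma did not call it. MNT rose from 2.85 to 4.56 FPKM and MXD1 from 1.88 to 2.99 FPKM, while MXI1 and MXD3 were lower in starved libraries. These sums follow from the single genes above and are given as a description of RNA, not of protein. MYC made up 90.4% of activator FPKM in knockdown libraries, 95.2% in starved and 91.3% in fed libraries. MXD4 and MXI1 were the leading repressors. MXI1 per MXD4 stood at 0.712, 0.708 and 1.34 in knockdown libraries, at a mean of 0.376 ± 0.0808 in starved libraries and at 0.538 ± 0.0364 in fed libraries, and the highest knockdown value was that of replicate 3.

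**Figure D3:**
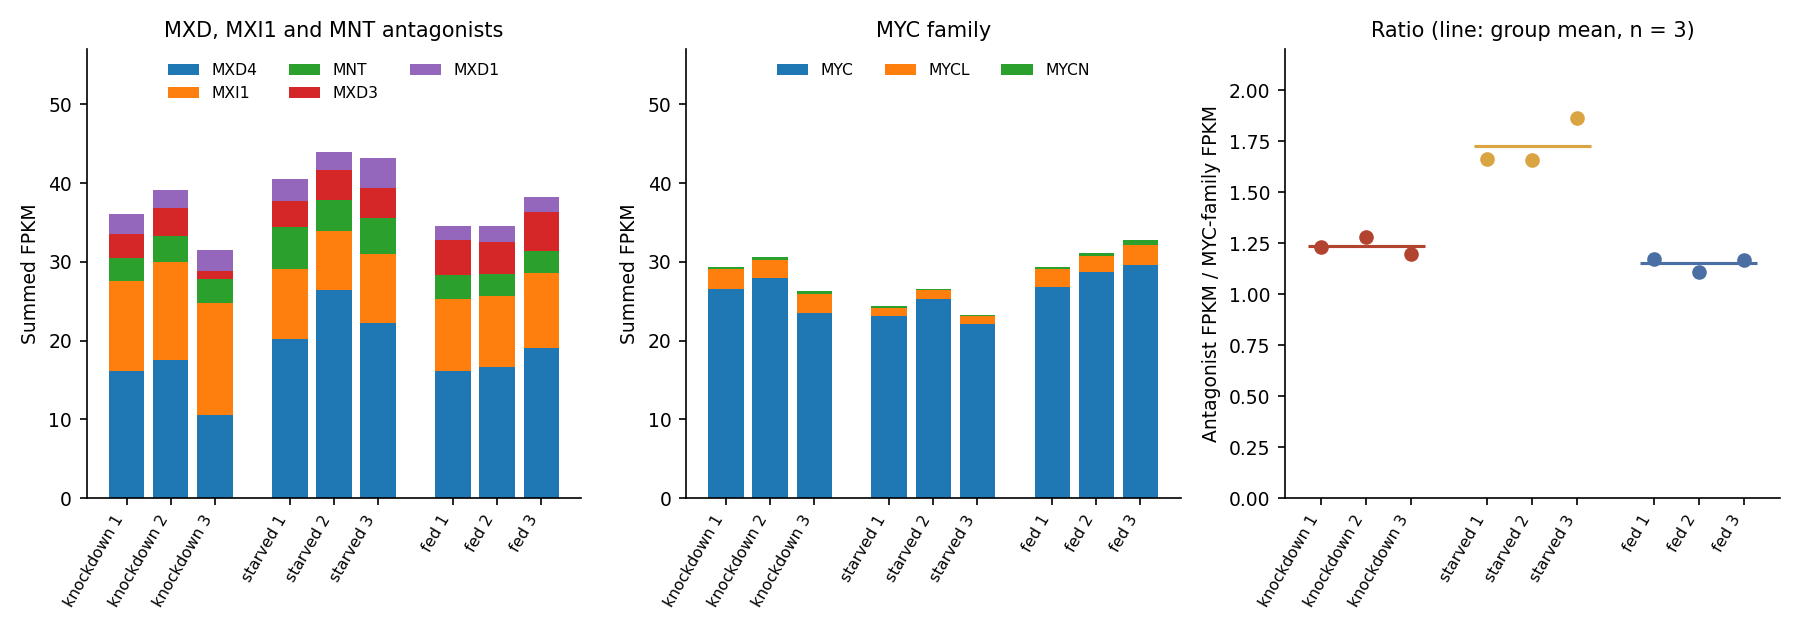
Summed FPKM of the repressors (left, stacked by gene), of the MYC family (middle) and their ratio (right, lines mark group means) in each knockdown, starved and fed library. The ratio averaged 1.24 in knockdown, 1.73 in starved and 1.15 in fed libraries.

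Genes that the network acts on or is controlled by were followed through lists drawn from textbook knowledge. Of 70 listed MYC-induced targets 69 were tested. In starved against fed libraries 23 were higher and 7 lower, with a median of 0.15, while MYC itself was lower there. These 30 calls among 69 lay near the share over all tested genes, 42.8% (21.5% higher, 21.3% lower). HK2 (hexokinase, 1.10), TFRC (transferrin receptor, 0.82) and SLC1A5 (glutamine transporter, 0.77) rose, and UBTF (RNA polymerase I factor, -1.06), FAM216A (-0.75) and CCND1 (cyclin D1, -0.51) fell, each value a log2 fold change that passed limma's test. The split depended on the scale: by TPM it was 15 higher and 12 lower, and over all tested genes the share of calls that were higher was 50.3% in the main scaling and 34.1% by TPM. In knockdown against starved libraries 9 of the 69 were higher and 23 lower, with a median of -0.18, and 13 were higher and 19 lower by TPM. The 32 calls of the main scaling lay near the share over all tested genes, 46.4% (22.5% higher, 23.9% lower). SLC1A5 (-0.87), SRM (spermidine synthase, -0.78) and DDX18 (-0.77) fell, and UBTF (0.78), E2F2 (0.65) and CCND1 (0.58) rose. Against fed libraries 5 were higher and 7 lower in the knockdown, with a median of -0.02, against 18.5% of all tested genes called. These 12 calls became 5 to 20 over the alternative settings. They were 5, 6 and 6 when fed replicates 1, 2 and 3 were left out in turn, and 20 by DESeq2 or with the GC trend removed.

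MYC-repressed targets, of which 22 of 25 were tested, include cell cycle inhibitors and stress genes. In starved against fed libraries 9 were higher and 3 lower, against 42.8% of all tested genes called, with DDIT3 (stress factor CHOP, 1.18), CCNG2 (cyclin G2, 0.75) and LAMP1 (lysosomal membrane protein, 0.72) up and NDRG1 (-0.66) down. In knockdown against starved libraries 7 were higher and 3 lower, against 46.4% of all tested genes called. NDRG1 (2.39), GADD45B (1.43) and the cyclin-dependent kinase inhibitor CDKN1A (1.20) rose, and LAMP1 (-1.32) and CCNG2 (-0.52) fell. In knockdown against fed libraries 6 were higher and 1 lower (12 called without knockdown replicate 3), against 18.5% of all tested genes called, led by GADD45B (1.99), NDRG1 (1.73) and GADD45A (1.51), while LAMP1 fell (-0.60). Of the 8 tested genes, from 10 listed, known to respond to MondoA or ChREBP, 3 rose and 1 fell on starvation, against 42.8% of all tested genes called. ARRDC4 (1.03) and HK2 rose and TXNIP (-0.32) fell there. In knockdown against starved libraries 3 rose and 3 fell, against 46.4% of all tested genes called. KLF10 (0.95), PFKFB3 (0.92) and TXNIP (0.49) were higher there, and ARRDC4 (-1.07), RGS16 (-0.57) and HK2 (-0.36) were lower. TXNIP and ARRDC4, a pair of arrestin family genes controlled by MondoA and MLX, thus differed in sign in both comparisons. In knockdown against fed libraries PFKFB3 (0.77), KLF10 (0.75) and HK2 (0.74) were the 3 called of these 8, against 18.5% of all tested genes called.

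Regulators of MYC turnover and expression, 37 of them tested, had 8 higher and 4 lower genes in starved against fed libraries and 4 higher and 6 lower in knockdown against starved libraries. These 12 and 10 calls were smaller shares of the 37 than the 42.8% and 46.4% called among all tested genes. USP36, a nucleolar deubiquitinase that stabilises MYC, was higher in starved than in fed libraries (1.16) and lower in knockdown than in starved ones (-1.10). The kinase PIM2 did the same (0.86 and -1.20). BIN1, a MYC-interacting adaptor, had the opposite signs (-0.76 and 0.82), as did the kinase PLK1 (-0.43 and 0.78). These comparisons share the starved libraries. Normalised reads averaged 1264 in knockdown and 1197 in fed libraries for USP36, and 286 and 371 for PIM2. They averaged 675 and 635 for BIN1, and 2536 and 1967 for PLK1. In knockdown against fed libraries 6 of the 37 were higher and 2 lower, against 18.5% of all tested genes called. This count was unstable: limma called 0 of the 37 without fed replicate 1 (10 at an unadjusted p under 0.05), 1 without fed replicate 2, 2 without fed replicate 3 and 15 with the GC trend removed, and edgeR called 7 and DESeq2 10. By TPM the starvation split was 2 higher and 6 lower, against the 8 and 4 above. Of 29 tested cofactors 7 were higher and 1 lower on starvation, and 4 were higher and 4 lower in knockdown against starved libraries. Each time these 8 calls were a smaller share of the 29 than the 42.8% and 46.4% called among all tested genes. The 7 called in knockdown against fed libraries were higher, with 18.5% of all tested genes called there. These 7 became 3, 4 and 4 without fed replicates 1, 2 and 3, 4 by TPM, and 12 with the GC trend removed, of which 9 were higher. HCFC1, a chromatin cofactor of MYC, was higher by 0.82 in starved and by 0.58 in knockdown libraries than in fed ones. SAP30, a subunit of the SIN3 complex, was higher by 0.81 in starved and by 0.89 in knockdown libraries than in fed ones.

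**Figure D4:**
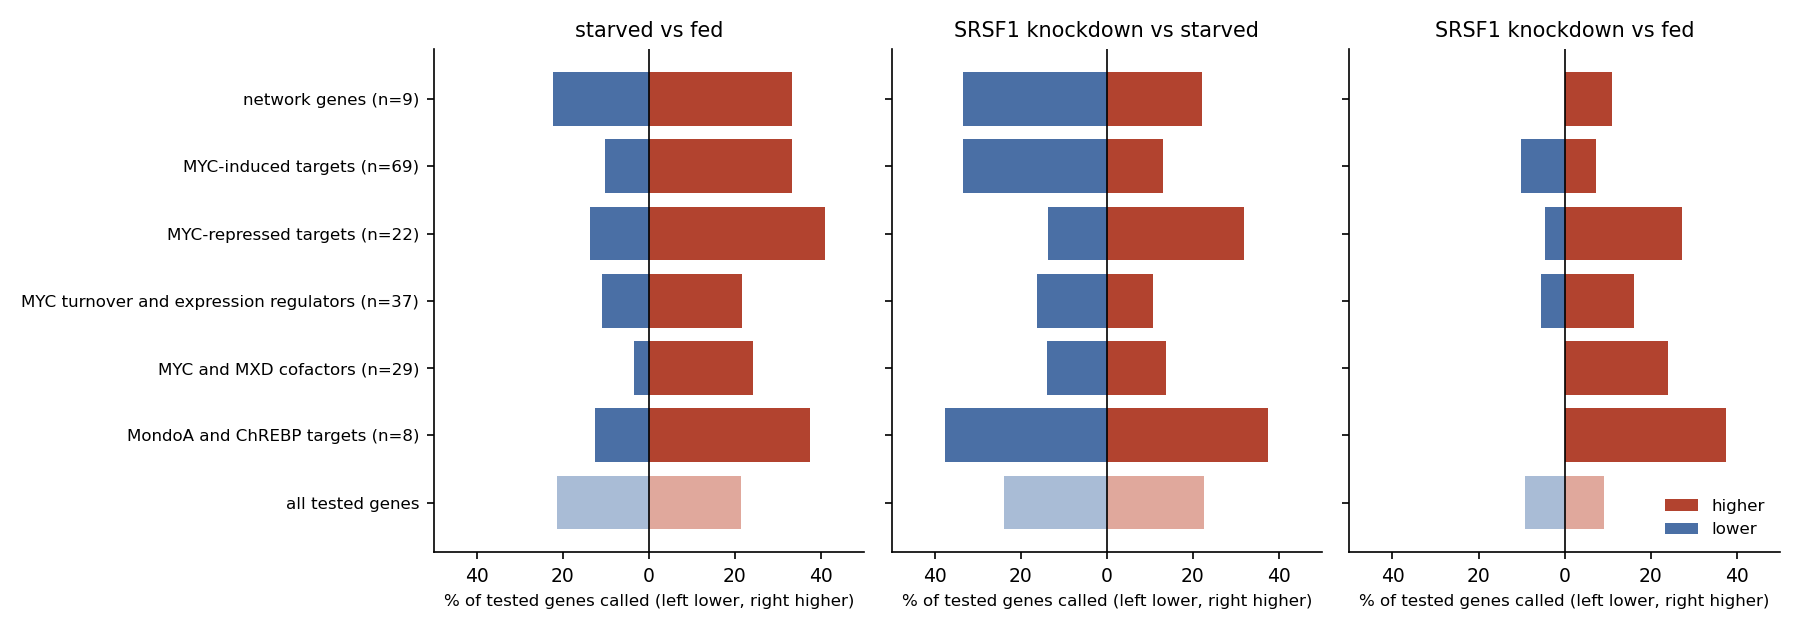
Share of tested genes called lower (left of 0) and higher (right of 0), in percent, for the network genes, 5 lists and all tested genes in the 3 comparisons. Of 69 MYC-induced targets, 23 were higher and 7 lower in starved than in fed libraries, and 9 were higher and 23 lower in knockdown than in starved libraries. Among all tested genes, 42.8% and 46.4% were called in these comparisons.

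Further partners of the network were tested as well. MGA, a large protein that pairs with MAX within a Polycomb complex, averaged 1663 ± 265 normalised reads in knockdown, 995 ± 58.8 in starved and 1444 ± 120 in fed libraries (SD, n = 3 each). It was lower in starved than in fed libraries (-0.44 ± 0.11 SE, limma adjusted p = 0.00834) and higher in knockdown than in starved ones (0.61 ± 0.11 SE, limma adjusted p = 0.00125). ZBTB17, which encodes MIZ1, the zinc finger partner through which MYC represses genes, averaged 595 ± 77.9 in knockdown, 398 ± 34.9 in starved and 397 ± 16.7 in fed libraries. It was higher in knockdown than in starved libraries (0.52, limma adjusted p = 0.0023) and higher in knockdown than in fed ones (0.52, limma adjusted p = 0.00799), while starved and fed libraries differed by 0.00 (limma adjusted p = 0.999). The MLX partner MLXIP averaged 1499 normalised reads in knockdown, 1681 in starved and 1458 in fed libraries, and MLXIPL averaged 197 in knockdown, 189 in starved and 207 in fed libraries. Neither was called by limma in any of the 3 comparisons.

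The genes whose log2(FPKM + 1) most resembled that of each network gene over the 9 libraries were sought among 6960 genes with a mean level of at least 5 FPKM. They are given as a description, since the points share 3 groups. MYC was most like GSS, which encodes glutathione synthetase (Pearson's r 0.98), POLD2, a subunit of DNA polymerase delta (0.97), and B4GAT1 (0.97), and 1.61% of the 6960 genes had an r above 0.9 with it. MYCL was most like LITAF (0.99), MXD4 most like MPV17L2 (0.99), MXI1 most like TBC1D9 (0.98) and MNT most like MITD1 (0.99). The shares of genes with an r above 0.9 were 5.69% for MYCL, 3.59% for MXD4, 1.16% for MXI1 and 1.81% for MNT.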

How the data were processed

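Per the labels' protocols, RNA of 293T cells was made into libraries with an mRNA-seq kit. The authors deposited 1 table of 19966 genes with a value per gene in each of 9 libraries. The table's name calls these values FPKM, but every value was a whole multiple of 1 step per library (relative tolerance 1e-08), so the deposited signal was read counts divided by a size factor, and it is called normalised read count here. Aligner and counting tool: not given in the sources used here. For the genome, mm10 is named per the submitters' processing notes, whereas 19830 of 19849 gene IDs found in GENCODE 29 lay at overlapping GRCh38 positions in the deposited table, and GRCh38 is used here.

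FPKM was computed from the deposited values by the deposited gene length and 1 depth for all libraries (the median column total), so the authors' scaling between libraries was kept. Genes at 1 FPKM or more in 3 libraries (11137, with 8829 left out) were tested with limma 3.58.1 (R 4.3.3, trended variance) on log2(FPKM + 1) over the 3 groups at an adjusted p of 0.05. On simulated counts of knockdown against starved and starved against fed libraries, limma recovered 1.33% and 4% of 1.25-fold changes. It recovered 41.3% and 48.7% of 1.5-fold and 92% and 91.3% of 2-fold changes. The simulation changed far fewer genes than were called here and left out knockdown against fed libraries. The planned count tests, edgeR 4.0.16 and DESeq2 1.42.0, were run as alternatives on the 8 libraries whose reads could be recovered (starved replicate 1 left out). Fold changes are the group named first over the second. In a list, the 3 genes with the largest change each way among those called with at least 5 FPKM in the higher group and no overlap of libraries could be named. The network genes, the lists and the tests were chosen with earlier results of these data known. The same library numbers were not treated as pairs. Sequences came from a RefSeq table (GRCh38.p14). Counting error and library spread limit low genes such as MYCN most.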

Additional observations from a re-analysis of the deposited data

How the results depend on the processing

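Over 25 alternative settings no network gene changed sign in any comparison. MYCL, MXI1, MXD4, MNT and MLX (knockdown against starved) and MYCL, MNT and MLX (starved against fed) passed in each setting that tested them. With a level of at least 5 FPKM, 7435 genes were tested and 3131 (58.8% of them higher) and 3429 (41.1% higher) were called in starved against fed and knockdown against starved libraries. That level left 5 network genes, of which 2 and 3 were called. In knockdown against fed libraries 853 to 2494 genes were called when 1 library was left out (853, 1000 and 1063 without fed replicates 1 to 3), and 0 to 2 network genes. There limma on TPM called 0 network genes (2 at an unadjusted p under 0.05), with MXI1 at 0.40, and 2 were called when only the 2 groups were fitted, with a length or GC trend removed, and by DESeq2. Scaling moved the share of calls that were higher: in starved against fed libraries it was 36.9% by library total and 34.1% by TPM, against 50.3%, and in knockdown against starved libraries 58.0% and 58.1%, against 48.5%. Calls were also gained. In starved against fed libraries MXD4 passed with a GC trend removed (0.47, limma adjusted p = 0.00172), without knockdown replicate 3 (0.0116) and with only the 2 groups fitted (0.0171), and MXD3 passed without knockdown replicate 3 (0.0321) and with only the 2 groups (0.0362). In knockdown against starved libraries MAX passed with a GC trend removed (-0.24, 0.00975), MYC by quantile scaling (0.25, 0.0278) and MXD3 without knockdown replicate 2 (-0.69, 0.0312). In knockdown against fed libraries MXD1 passed with only the 2 groups (0.0497), and MXD3 passed in 5 settings (0.0219 to 0.0461). In starved against fed libraries MYC missed the threshold by edgeR (0.0655) and DESeq2 (0.0693). The cause of these changes was not tested. Libraries of the same number did not all deviate together (correlations -0.56 to 0.62), so the numbers were not used as pairs. A replicate block gave 4832, 5203 and 2047 calls in the 3 comparisons, with no network call changed.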
